A study of Homo sapiens with 10 samples.

Results

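The genes described here are the protein-coding genes of mitochondrial protein import, folding and quality control, measured by RNA sequencing in HEK293T cells, a human embryonic kidney line, under 3 cysteine supplies. They were chosen by name from the GENCODE 44 annotation: every protein-coding symbol that begins with TIMM or TOMM followed by a digit, plus HSPD1, HSPE1, HSPA9, TRAP1, DNAJA3, GRPEL1, GRPEL2, LONP1, CLPP, CLPX, YME1L1, AFG3L2, SPG7, HTRA2, PMPCA and PMPCB. This gave 42 genes of the 78894 gene entries in the count table, and all 42 were among the 29045 entries that passed the filter on low values (a normalized count of at least 10 in at least 3 of the 10 libraries). The study asked how cells adjust to the cysteine they are given. Cells of the unmodified line were kept for 24 h in medium without cysteine (0X, 2 libraries), in complete medium (1X, 4 libraries) or in medium with 10-fold excess cysteine (10X, 4 libraries). Polyadenylated RNA was sequenced, and each library carries a number as a biological replicate. The study's text gives another number of replicates for the complete and cysteine-free cultures than these labels, and the labels were followed. The study's methods describe a scheme with the same base medium for all 3 groups, with cysteine left out, supplied or raised. They also describe a starvation assay in which the cysteine-free medium was made up separately, with dialyzed serum. The RNA methods refer back to an amino acid starvation treatment, words that stand in the heading of the second of these. Only the first includes an excess medium, so which was used for the 3 groups is not settled. Effects of cysteine and of other differences between media therefore cannot be told apart.

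The libraries held between 34836014 and 61654861 reads on genes, and values are given as normalized counts, which are read counts divided by a factor for the depth of each library. The lowest read count of any of the 42 genes in a library was 17, for TOMM20L, and every other gene had at least 530 reads in every library. Markers of the HEK293 line were present in all libraries (NEFM at 12200 normalized counts or more and LIN28B at 3026 or more). IGF2BP1 was at 13595.5 or more and NEFL at 2967 or more, while PAX2 was lower, at 103 to 366. The lymphoid marker CD3E was at 0 in all libraries and PTPRC did not pass 4.36. The liver marker ALB was low but present, at 3.40 to 21.0, and APOA1 did not pass 14.8. Reads from the mitochondrial genome made up 4.71% ± 0.250 (SD, n = 4) of the reads in complete medium, 5.43% ± 0.397 (SD, n = 2) without cysteine and 0.129% ± 0.0130 (SD, n = 4) in excess. A scaling that leaves these reads out is given with the results on excess medium, and any other part of this loss in those results was not tested. The 42 genes took 0.485% ± 0.00703 (SD, n = 4) of all reads in complete medium, 0.423% ± 0.0012 (SD, n = 2) without cysteine and 0.403% ± 0.00243 (SD, n = 4) in excess. As these are bulk samples, fewer cells expressing a gene and less RNA per cell cannot be told apart.

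Most mitochondrial proteins are encoded in the nucleus and made in the cytosol. They enter through the TOM complex of the outer membrane. Proteins with a cleavable presequence then pass the TIM23 complex and are pulled into the matrix by a motor built on the chaperone HSPA9, while carrier proteins of the inner membrane are escorted by small TIMM chaperones to the TIM22 complex. In the matrix a processing peptidase removes the presequence, HSPD1 and HSPE1 (the Hsp60 and Hsp10 of the folding chamber) fold the protein, and ATP-dependent proteases remove what fails to fold or is no longer needed.

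Promoter sequence was available from RefSeq (GRCh38.p14) for 37 of the 42 genes, not including TOMM5, GRPEL1, YME1L1, CLPP and TIMM8B. Each window holds 250 bases before and 50 bases after a transcription start. The windows shown belong to HSPD1 and HSPE1, which lie head to head on chromosome 2 and both fell in both other media, and to TIMM9 and GRPEL2, the genes with the largest increase that passed the test without cysteine and in excess, respectively. They are printed 5′ to 3′ on the strand of the gene, and capitals mark a match to 1 of 4 short motifs described after the sequences. The HSPD1 window is at chr2:197499791-197500090 (minus strand), the HSPE1 window at chr2:197500129-197500428 (plus strand), the GRPEL2 window at chr5:149345249-149345548 (plus strand) and the TIMM9 window at chr14:58427482-58427781 (minus strand). RefSeq gives HSPD1 a second start with a window of its own, and the window shown was picked after its match was seen.
HSPD1: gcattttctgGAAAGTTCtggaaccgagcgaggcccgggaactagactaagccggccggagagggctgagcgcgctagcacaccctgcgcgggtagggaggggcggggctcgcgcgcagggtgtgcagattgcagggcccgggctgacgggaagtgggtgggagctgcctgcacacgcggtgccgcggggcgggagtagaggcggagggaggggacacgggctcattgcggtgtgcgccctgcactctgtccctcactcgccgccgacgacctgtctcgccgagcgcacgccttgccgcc
HSPE1: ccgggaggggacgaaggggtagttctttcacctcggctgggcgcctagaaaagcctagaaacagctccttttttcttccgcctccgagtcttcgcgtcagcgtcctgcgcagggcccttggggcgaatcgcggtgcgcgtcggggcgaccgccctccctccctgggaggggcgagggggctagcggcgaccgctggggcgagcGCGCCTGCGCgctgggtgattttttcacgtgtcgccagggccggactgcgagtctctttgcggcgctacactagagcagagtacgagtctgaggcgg
GRPEL2: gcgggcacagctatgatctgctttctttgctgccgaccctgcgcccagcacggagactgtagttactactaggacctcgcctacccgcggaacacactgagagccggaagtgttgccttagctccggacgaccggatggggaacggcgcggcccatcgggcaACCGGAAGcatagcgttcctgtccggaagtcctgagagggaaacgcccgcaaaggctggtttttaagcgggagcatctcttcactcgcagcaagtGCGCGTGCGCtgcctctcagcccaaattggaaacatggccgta
TIMM9: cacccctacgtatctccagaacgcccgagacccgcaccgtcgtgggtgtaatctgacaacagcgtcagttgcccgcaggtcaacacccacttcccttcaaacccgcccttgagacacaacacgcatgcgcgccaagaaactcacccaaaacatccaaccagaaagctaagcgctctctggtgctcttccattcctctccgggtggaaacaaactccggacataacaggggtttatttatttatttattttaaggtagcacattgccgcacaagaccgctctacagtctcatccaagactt

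The 4 motifs were searched on both strands. The core of the heat shock element (GAANNTTC, which reads the same on both strands) was found in 1 of the 37 genes, HSPD1, a share of 2.7%, against 8.21% of the 27305 genes with a window. An amino acid response element (TGATGNAA) was found in 2 of the 37, PMPCB and TIMM22, or 5.41%, against 4.46% of all genes. The string bound by nuclear respiratory factor 1 (GCGCA, then any base, then GCGC) occurred in 12 of the 37, or 32.4%, against 6.98% of all genes, and an ETS string (ACCGGAAG) in 6 of the 37, or 16.2%, against 2.62%. In the windows printed, the capitals mark the heat shock core in HSPD1 and the nuclear respiratory factor 1 string in HSPE1. In GRPEL2 they mark both that string and the ETS string, and TIMM9 held none of the 4. The other HSPD1 window, at chr2:197500225-197500524 and not printed, overlaps the HSPE1 window. It holds the same nuclear respiratory factor 1 string as HSPE1, read from the other strand. No string contains another. A match describes letters in these windows and is not a measured binding site.

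Levels can be compared between genes only per length, as normalized counts per kilobase of exon. On that scale in complete medium TOMM6 was highest at 6734 ± 401 (SD, n = 4), followed by the receptor TOMM20 at 5258 ± 64.5 and HSPD1 at 4965 ± 424 (SD, n = 4 each). TOMM20 and HSPD1 differed by less than the SD of HSPD1. HSPE1 stood at 3321 ± 226 and TIMM23, a core subunit of the presequence channel, at 2835 ± 195 (SD, n = 4 each). At the low end were TIMM21 at 173 ± 6.87, the protease subunit SPG7 at 131 ± 8.79 and TOMM20L at 57.1 ± 18.4 (SD, n = 4 each). Genes of outer membrane entry thus stood at both ends of the range. The length used counts the exon bases of all annotated transcripts of a gene, 35761 for SPG7 and 637 for TOMM6. The order therefore depends on the annotation too: before division by length, SPG7 averaged 4669 normalized counts in complete medium and TOMM6 4289.

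Some reads may belong to a neighbour. Of the 42 genes, 24 overlap the exons of another annotated gene and 18 do not. Strand-marking libraries were made, but the strand setting used for counting is not given in the sources used here. All 637 exon bases of TOMM6 lie inside a longer gene entry of the same strand (ENSG00000124593), so the values of these entries cannot be separated. Both hold reads in every library, although the study's methods say that a read lying over several genes was dropped, so the level and the change of TOMM6 are uncertain. TIMM23B-AGAP6 is a readthrough gene that shares 85.9% of its exon bases, mainly with AGAP6 and TIMM23B, and 31.1% of those of TIMM23B are shared in turn. Further neighbours share 28.5% of the exon bases of TRAP1 (mainly DNASE1), 30.1% of TIMM8B (NKAPD1), 20.3% of TOMM40L (NR1I3 and MIR5187), 12.5% of PMPCB (DNAJC2, PSMC2 and ENSG00000289613), 11.7% of AFG3L2 (TUBB6), 13.2% of TIMM10B (ENSG00000283977), 6.0% of YME1L1 (MASTL) and 4.8% of TIMM22 (ABR). In excess DNASE1 changed by -0.35, NKAPD1 by 0.12, NR1I3 by -0.35, TUBB6 by -0.14 and MASTL by 0.38 on the log2 scale, and the part of these reads in the values of the 42 genes was not tested.

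Without cysteine, many transcripts of import and folding were lower, by less than 2-fold. Of the 42 genes, 18 fell, 2 rose and 22 did not pass (limma on log2 of the normalized count plus 1, adjusted p of 0.01 or less), so 47.6% were called, against 15.9% of all 29045 entries tested. In the lower direction the share was 42.9% against 8.51%, and in the higher direction 4.76% against 7.39%. Well-expressed genes are called more often: among the 10082 protein-coding genes with a mean of at least 500 in complete medium, 28.9% were called, 18.4% lower and 10.5% higher. The median log2 fold change was -0.26 over the 42 genes, 0.00 over all entries and -0.05 over the well-expressed coding genes. Of the 18 genes free of such overlap, 12 fell and none rose (also none by edgeR, DESeq2 or at an unadjusted p under 0.05), with a median of -0.31. All cysteine-free libraries lay below all complete libraries for 29 of the 42 genes, against 23.6% of all entries, and above them for 5, against 23.3%. No change that passed the test reached 2-fold, whereas 2.10% of all entries did.

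These counts depended on single libraries. Without replicate 1 of the cysteine-free libraries 7 of the 42 genes were called, without its replicate 2 there were 8, and without replicate 2 of the complete libraries there were 12. The calls over all entries dropped too: these are 16.7%, 19.0% and 28.6% of the 42 genes, against 4.12%, 3.37% and 9.62% of all entries in the same fits. Single-gene values were followed for 14 of the 20 called genes. Of these 14, 6 passed whichever library was left out (HSPE1, GRPEL1, TOMM5, TIMM17A, TOMM40 and PMPCA) and 8 did not (HSPD1, TIMM8A, TIMM8B, TIMM9, TIMM13, TIMM23, TIMM44 and TOMM6). All 8 kept their direction.

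In excess cysteine more of these genes passed the test, again mostly lower. There 24 of the 42 genes fell, 6 rose and 12 did not pass the same test, so 71.4% were called, against 46.0% of all entries and 68.0% of the well-expressed coding genes. The share that changed was therefore close to that of well-expressed genes. The lower direction held 57.1% of the 42 genes, against 22.9% of all entries and 40.2% of well-expressed coding genes, and the higher direction held 14.3%, against 23.1% and 27.9%. The median log2 fold change was -0.36, against 0.01 over all entries and -0.07 over the well-expressed coding genes. With libraries scaled to equal totals in place of the deposited factors, the median of all entries moved by 0.10, the share of all calls that were higher went from 50.3% to 61.8%, and the 42 genes gave 10 higher and 23 lower. Equal totals count the mitochondrial reads, which were fewer in excess. At equal totals over nuclear genes, a scaling added after seeing the data, the median moved by 0.04 and the share higher was 54.5%. The 42 genes then gave 8 higher and 24 lower. All excess libraries lay below all complete libraries for 25 of the 42 genes, against 25.5% of all entries, and above them for 7, against 26.1%. HSPE1, TOMM6 and TIMM13 passed the test with a fall of at least 2-fold, and no gene passed with such a rise. Of all entries, 10.1% passed with a change of that size, rises and falls together. TIMM13 was at that edge, with log2 fold changes from -1.05 to -0.90 over the alternatives. All 23 of these called genes whose single-library fits were examined (the named genes of the methods) passed whichever single library was left out. The same 4 complete libraries serve as the reference of both comparisons, so these are not independent of each other.

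**Figure D1:**
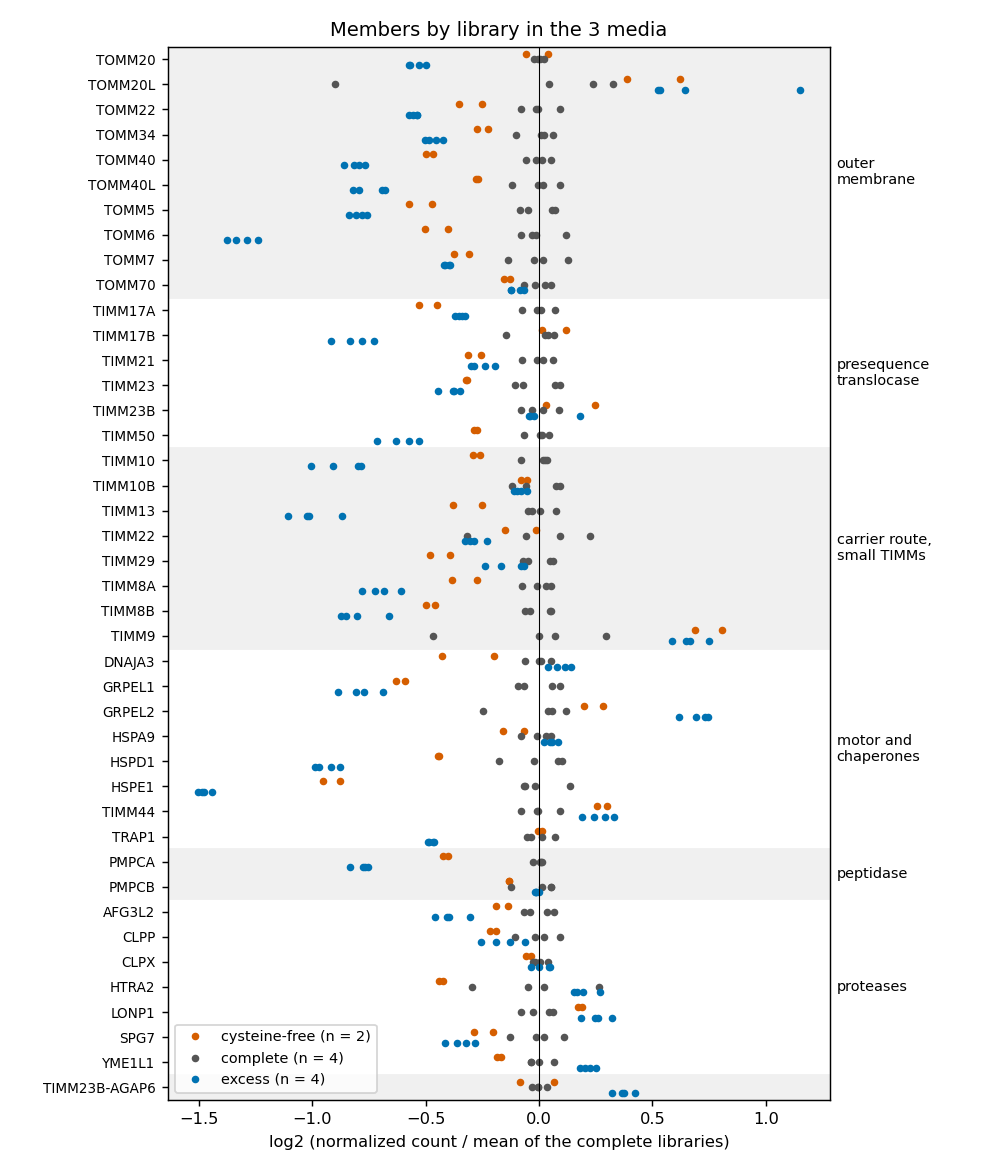
Each point is 1 library, placed at log2 of its normalized count over the mean of the 4 complete libraries, for each gene grouped by role. Most genes of import sit left of 0 in both other media, with excess further left in TOMM6, TIMM13, HSPD1 and HSPE1, while TIMM9, TIMM44 and LONP1 sit right of 0 in both.

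Of the 10 genes of outer membrane entry, 6 fell without cysteine (TOMM5, TOMM6, TOMM7, TOMM22, TOMM34 and TOMM40) and 8 fell in excess, the same 6 with TOMM20 and TOMM40L. The share called was 60% and 80%, against 15.9% and 46.0% of all entries and 28.9% and 68.0% of well-expressed coding genes. None rose in either medium by limma, edgeR or DESeq2. An unadjusted p under 0.05 in the higher direction was found for 0 genes without cysteine and for 1, TOMM20L, in excess. TOMM20L, a relative of TOMM20 with few reads, was at 45.6 and 53.4 without cysteine, 41.0, 35.8, 43.7 and 18.7 in complete medium and 50.1, 77.1, 50.4 and 54.4 in excess, and its log2 fold change in excess was 0.77 (SE 0.257, limma adjusted p = 0.0175). TIMM9, with more reads, shares 28.6% of the exon bases of TOMM20L from the other strand, and the part of its reads in these values was not tested. TOMM40L, a relative of TOMM40, was at 1007 and 1013, 1125 to 1302 and 691 to 762 in the same order, at log2 fold changes of -0.27 (limma adjusted p = 0.0194) and -0.74 (limma adjusted p = 2.36e-08). For both relatives the cysteine-free and excess libraries lay on 1 side of the complete ones. TOMM40 forms the channel itself. Its normalized counts were 5346 and 5234 without cysteine, 7659, 7314, 7459.8 and 7099 in complete medium and 4192, 4072, 4341 and 4255 in excess. The 3 media did not overlap, with complete medium highest and excess lowest. The log2 fold change was -0.48 (SE 0.0517, limma adjusted p = 2.48e-05) without cysteine and -0.81 (SE 0.0394, limma adjusted p = 2.94e-11) in excess.

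TOMM6, a small subunit that stabilizes the channel complex, had the second largest fall in excess. It was at 3251 and 3031 without cysteine, at 4654, 4193, 4249.7 and 4061 in complete medium and at 1652, 1698, 1817 and 1758 in excess. Again no medium overlapped another, and excess stood at 40.4% of the complete level. Its log2 fold change was -1.31 (SE 0.0507, limma adjusted p = 1.72e-12) in excess and -0.45 (SE 0.0647, limma adjusted p = 2.29e-04) without cysteine, where the call was lost without replicate 2 of the cysteine-free libraries (adjusted p = 0.0169). The overlapping entry ENSG00000124593 changed by -1.21 and -0.39, and how the reads divide between them was not tested. TOMM5, another small subunit, was at 2044 and 1904 without cysteine, 2946, 2736, 2973 and 2673 in complete medium and 1676, 1583, 1622 and 1650.1 in excess. Both other media lay below complete medium throughout, at log2 fold changes of -0.52 (limma adjusted p = 9.97e-05) and -0.79 (limma adjusted p = 5.58e-10). A pair of same-strand entries overlaps 18.9% of its exon bases, and these fell by 0.44 and 0.34 without cysteine and by 0.65 and 0.46 in excess on the log2 scale.

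TOMM20, the receptor for presequences, was at 17378 and 18582 without cysteine, 17799.6 to 18329.8 in complete medium and 12143 to 12796 in excess. The cysteine-free libraries lay on either side of the complete ones and excess lay below both media, with a log2 fold change of -0.54 (SE 0.0328, limma adjusted p = 4.12e-10), against -0.01 (SE 0.0461, limma adjusted p = 0.915) without cysteine. TOMM22, the central receptor, fell in both media (-0.30 and -0.55), as did the cytosolic TOMM34 (-0.25 and -0.46) and the small subunit TOMM7 (-0.34 and -0.40), all on the log2 scale. TOMM70, the receptor for carrier proteins, did not pass in either medium, at -0.14 (limma adjusted p = 0.0722) and -0.10 (limma adjusted p = 0.0462).

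Of the 6 genes of the presequence translocase, TIMM17A, TIMM23 and TIMM50 fell without cysteine, and the same 3 fell in excess with TIMM17B and TIMM21. The share called was 50% and 83.3%, against 28.9% and 68.0% of well-expressed coding genes. TIMM23 builds the channel with a TIMM17 partner. It was at 2697 and 2708 without cysteine, 3596, 3212, 3548 and 3139 in complete medium and 2480.4, 2595, 2604 and 2647 in excess, so both other media lay below complete medium. Its log2 fold changes were -0.32 (SE 0.0677, limma adjusted p = 3.44e-03) and -0.38 (SE 0.0508, limma adjusted p = 5.69e-06). The first was lost without replicate 1 or 2 of the cysteine-free libraries (adjusted p = 0.0525 and 0.053) or replicate 1 of the complete libraries (0.0139). TIMM23B, its near-identical relative, ranged from 941 to 1181 over all 10 libraries and passed in neither medium, at 0.14 (limma adjusted p = 0.25) and 0.02 (limma adjusted p = 0.799). Reads may be shared between these paralogs, so their separate values are uncertain. TIMM50, the receptor of the channel, changed by -0.28 and -0.61, and TIMM21, which links the channel to other inner membrane complexes, by -0.28 (limma adjusted p = 0.0173, not passing) and -0.25 (limma adjusted p = 1.41e-03). The readthrough TIMM23B-AGAP6 was at 2582 and 2866 without cysteine, 2682, 2729, 2803 and 2728 in complete medium and 3523, 3421, 3662 and 3544 in excess, where all libraries lay above the others. It rose in excess by 0.37 (limma adjusted p = 7.82e-07), and AGAP6 by 0.45.

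TIMM17A and TIMM17B encode alternative partners of TIMM23, and each was lowest in a different medium. TIMM17A was at 2861 and 3022 without cysteine, 4337, 4103, 4159 and 3928 in complete medium and 3239, 3291, 3270.4 and 3202 in excess. TIMM17B was at 2245 and 2420.0 without cysteine, 2289, 2015, 2333 and 2267 in complete medium and 1250.5, 1296, 1346 and 1178 in excess. Complete medium was highest for TIMM17A and cysteine-free medium lowest, whereas for TIMM17B cysteine-free and complete medium overlapped and excess stood below both. For TIMM17A the log2 difference between cysteine-free and excess medium was small, at -0.14. Its call was lost with the replicate block, without the low-value filter and in 1 fit over all groups. TIMM17A changed by -0.49 (SE 0.0593, limma adjusted p = 6.30e-05) without cysteine and by -0.35 (SE 0.0419, limma adjusted p = 2.06e-06) in excess. TIMM17B changed by 0.07 (SE 0.0723, limma adjusted p = 0.522) and by -0.81 (SE 0.0586, limma adjusted p = 3.85e-09). TIMM17B shares 15.5% of its exon bases with PQBP1 on the other strand, and TIMM17A shares none.

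Among the 8 genes of the carrier route and the intermembrane space chaperones, TIMM8A, TIMM8B, TIMM13 and TIMM29 fell without cysteine and TIMM9 rose. In excess TIMM8A, TIMM8B, TIMM10 and TIMM13 fell and TIMM9 rose. The share called was 62.5% in each medium, against 28.9% of well-expressed coding genes without cysteine and 68.0% in excess. TIMM8 and TIMM13 proteins form one chaperone ring and TIMM9 and TIMM10 the other, and both rings carry conserved cysteines. TIMM13 was at 3143 and 3435 without cysteine, 4006, 3958, 4106 and 4306 in complete medium and 1905, 2026, 2017 and 2245 in excess. No medium overlapped another. Its log2 fold change was -1.0 (SE 0.052, limma adjusted p = 6.40e-11) in excess and -0.32 (SE 0.0606, limma adjusted p = 1.73e-03) without cysteine, where the call was lost without replicate 1 or 2 of the cysteine-free libraries (adjusted p = 0.0586 and 0.0132). TMPRSS9, which shares 20.1% of its exon bases from the other strand, averaged 139.8 normalized counts in complete medium and did not pass in either medium.

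TIMM9 rose in both media, opposite to TIMM8A, TIMM8B and TIMM13. Its normalized counts were 1301 and 1411 without cysteine, 848, 808, 992 and 585 in complete medium and 1282, 1215, 1358 and 1264 in excess. Every library of both other media lay above the highest complete library. The log2 fold change was 0.77 (SE 0.15, limma adjusted p = 1.96e-03) without cysteine and 0.69 (SE 0.111, limma adjusted p = 5.08e-05) in excess. The first lost its call without replicate 1 or 2 of the cysteine-free libraries (adjusted p = 0.0308 and 0.0572) or replicate 2 of the complete libraries (0.011). Other-strand genes overlap 26.6% of the exon bases of TIMM9. Of these, TOMM20L was at 0.56 (limma adjusted p = 0.251) and 0.77 (limma adjusted p = 0.0175) at a mean of 34.8 in complete medium. ENSG00000258378 changed by 0.62 (limma adjusted p = 0.039) and 0.77 (limma adjusted p = 2.58e-04) at a mean of 103 in complete medium, while KIAA0586 changed by 0.05 and -0.26 at a mean of 1778. Their part in the TIMM9 values was not tested.

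TIMM10, the ring partner of TIMM9, was at 1018 and 1040.4 without cysteine, 1276, 1267, 1179 and 1259.7 in complete medium and 664, 716, 724 and 620.3 in excess. Excess was lowest and complete medium highest, with no overlap. The fall in excess was -0.87 (SE 0.0632, limma adjusted p = 3.96e-09), and the value without cysteine, -0.27 (SE 0.072, limma adjusted p = 0.012), missed the threshold. TIMM10B, a small TIMM of the TIM22 complex, was at 1319 and 1291, 1438, 1455, 1258 and 1313, and 1265, 1276, 1292 and 1316 in the same order, so the media overlapped. It did not pass in either medium at -0.06 (limma adjusted p = 0.589) and -0.08 (limma adjusted p = 0.227). TIMM8A was at 920.3 and 991 without cysteine, 1139 to 1244 in complete medium and 699 to 787 in excess. TIMM8B was at 1235 and 1272, 1671 to 1811 and 954 to 1104 in the same order. Both genes therefore fell stepwise from complete to cysteine-free to excess medium, by -0.33 (limma adjusted p = 5.47e-03) and -0.70 (limma adjusted p = 2.68e-08) for TIMM8A and by -0.48 (limma adjusted p = 2.19e-04) and -0.79 (limma adjusted p = 4.47e-09) for TIMM8B. The cysteine-free call of TIMM8A was lost without replicate 1 or 2 of either group (adjusted p from 0.0189 to 0.0956), and that of TIMM8B without replicate 1 of the cysteine-free libraries (0.0112). TIMM22, the carrier channel, passed in neither medium (-0.07 and -0.27, limma adjusted p = 0.708 and 0.013), and TIMM29, its metazoan partner, fell without cysteine (-0.43, limma adjusted p = 1.99e-03) and was at -0.14 (limma adjusted p = 0.0778) in excess.

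The 8 genes of the import motor and the matrix chaperones include HSPE1, which had the largest fall in both media. Without cysteine HSPE1, GRPEL1, HSPD1 and DNAJA3 fell and TIMM44 rose. In excess HSPE1, HSPD1, GRPEL1 and TRAP1 fell, and GRPEL2 and TIMM44 rose. The share called was 62.5% without cysteine and 75% in excess, against 28.9% and 68.0% of well-expressed coding genes. HSPE1 (chr2:197500140-197503449, plus strand, GRCh38) was at 3296 and 3131 without cysteine, 6658, 5984, 5801 and 5776 in complete medium and 2166, 2178, 2137 and 2232 in excess. Complete medium was highest and excess lowest, with wide gaps between the media. The cysteine-free level was 53.1% of the complete level (log2 fold change -0.91, SE 0.0646, limma adjusted p = 7.45e-07). In excess it was 36.0% (log2 fold change -1.47, SE 0.0481, limma adjusted p = 1.96e-13). Both were the largest falls among the 42 genes. HSPE1 shares 17.9% of its exon bases with the readthrough HSPE1-MOB4, on the same strand, and with HSPD1. In complete medium HSPE1-MOB4 averaged 5126 normalized counts, against 6055 for HSPE1. It changed by -0.79 and -1.09, and its part in the HSPE1 values was not tested.

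HSPD1 (chr2:197486584-197516737, minus strand, GRCh38) starts next to HSPE1 on the other strand and shares 1.8% of its exon bases with it. It was at 27915 and 27833 without cysteine, 40083, 37269, 40616 and 33551 in complete medium and 19117, 20599, 20093 and 19368 in excess. The order of the media was that of HSPE1, and no medium overlapped another. The log2 fold change was -0.44 (SE 0.0655, limma adjusted p = 3.04e-04) without cysteine and -0.93 (SE 0.0502, limma adjusted p = 9.80e-11) in excess. The cysteine-free call was lost without replicate 1 or 2 of the cysteine-free libraries (adjusted p = 0.0149 and 0.0166). HSPA9, the Hsp70 of the motor, did not pass in either medium, at -0.11 (limma adjusted p = 0.12) and 0.05 (limma adjusted p = 0.204). TRAP1, the Hsp90 of the matrix, was at 0.00 without cysteine and fell by 0.47 in excess, and the co-chaperone DNAJA3 fell by 0.31 without cysteine and was at 0.09 (limma adjusted p = 0.0576) in excess, all as log2 fold changes.

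GRPEL1 and GRPEL2 encode alternative nucleotide exchange factors of HSPA9, and they moved apart. GRPEL1 was at 1921 and 1973 without cysteine, 3175, 2839, 2793 and 3093 in complete medium and 1611, 1703, 1849 and 1745 in excess. GRPEL2 was at 2774 and 2938 without cysteine, 2487, 2628, 2039.6 and 2516 in complete medium and 3706, 3907, 4049.6 and 4015 in excess. The order of the media was reversed between them: complete, cysteine-free, excess from high to low for GRPEL1 and from low to high for GRPEL2, without overlap in either gene. GRPEL1 changed by -0.61 (SE 0.0678, limma adjusted p = 3.21e-05) without cysteine and by -0.78 (SE 0.0557, limma adjusted p = 3.10e-09) in excess. GRPEL2 changed by 0.25 (SE 0.0882, limma adjusted p = 0.0524), which did not pass, and by 0.70 (SE 0.0651, limma adjusted p = 8.20e-08). GRPEL1 is free of exon overlap, and 2.9% of the exon bases of GRPEL2 are shared with GRPEL2-AS1. TIMM44, which tethers the motor to the channel, was at 4386 and 4524 without cysteine, 3653, 3477, 3664 and 3922 in complete medium and 4201, 4502, 4356 and 4632 in excess. Both other media lay above complete medium, by 0.28 (SE 0.0601, limma adjusted p = 3.82e-03) and 0.27 (SE 0.0465, limma adjusted p = 1.11e-04) on the log2 scale. The first was lost without replicate 1 or 2 of either group (adjusted p from 0.013 to 0.0754).

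**Figure D2:**
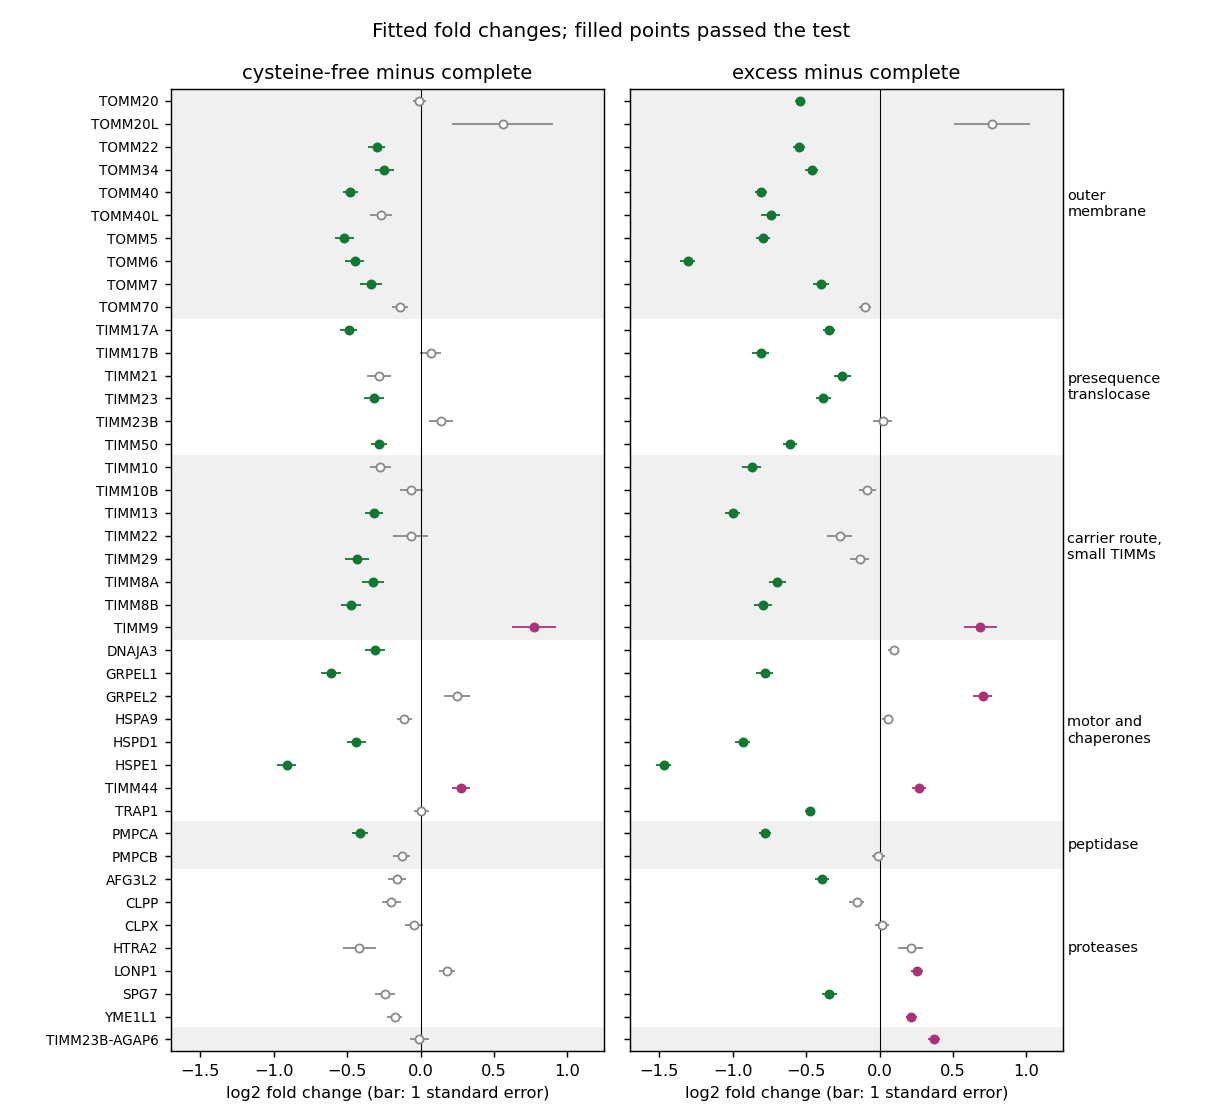
Log2 fold change against complete medium with 1 standard error for each of the 42 genes, without cysteine (left) and in excess (right), grouped by role. Filled points passed the test (green lower, purple higher) and open points did not. Without cysteine 0 of the 7 proteases passed, where 28.9% of well-expressed coding genes did. HSPE1 lies lowest in both panels at -0.91 and -1.47.

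The processing peptidase has a catalytic subunit, PMPCB, and a substrate-binding subunit, PMPCA. PMPCA was at 3386 and 3433 without cysteine, 4586, 4451, 4562 and 4560.5 in complete medium and 2655, 2548, 2691 and 2665 in excess, and it fell in both media by 0.41 (limma adjusted p = 8.80e-05) and 0.78 (limma adjusted p = 4.98e-11) on the log2 scale. PMPCB was at 4522 and 4519, 4543 to 5135 and 4893 to 4949 in the same order. Excess overlapped complete medium for PMPCB, and it did not pass in either medium, at -0.13 (limma adjusted p = 0.132) and -0.01 (limma adjusted p = 0.872).

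None of the 7 quality control proteases passed the limma test without cysteine, and in excess 2 rose and 2 fell. The share called without cysteine was 0%, against 15.9% of all entries and 28.9% of well-expressed coding genes. In excess it was 57.1%, against 68.0% of well-expressed coding genes. Without cysteine an unadjusted p under 0.05 was found for 6 of the 7, against 38.5% of all entries, well or poorly expressed. There edgeR called none and DESeq2 called 2 (HTRA2 and SPG7). LONP1 passed with quantile normalization, equal totals over nuclear genes, the replicate block and 1 fit over all groups (limma adjusted p from 3.48e-03 to 7.94e-03), and SPG7 passed in that last fit (4.04e-03) and without complete replicate 1 (8.28e-03). LONP1, the main soluble protease of the matrix, was at 7419 and 7513 without cysteine, 6458, 6235, 6786 and 6863 in complete medium and 7497, 7822, 7891 and 8219 in excess. Both other media lay above complete medium. It rose in excess by 0.26 (SE 0.0421, limma adjusted p = 6.19e-05), and its value without cysteine was 0.18 (SE 0.0544, limma adjusted p = 0.0235). YME1L1, the inner membrane protease that faces the intermembrane space, rose in excess by 0.21 (limma adjusted p = 8.49e-05) and was at -0.18 (limma adjusted p = 0.0191) without cysteine. AFG3L2, at 3404 and 3535 without cysteine, 4066, 3973, 3707 and 3778 in complete medium and 2827, 3139, 2929.9 and 2945 in excess, and SPG7 encode the subunits of the protease that faces the matrix. SPG7 was at 4052 and 3830.1, 4279, 4621, 5041 and 4735, and 3836, 3504, 3635 and 3733 in the same order. Excess lay below complete medium for both. They fell in excess by 0.39 (limma adjusted p = 1.68e-06) and 0.34 (limma adjusted p = 1.67e-05). Without cysteine they were at -0.16 (limma adjusted p = 0.0575) and -0.24 (limma adjusted p = 0.0146). The matrix protease CLPP and its unfoldase CLPX did not pass in either medium, with log2 fold changes from -0.20 to 0.02. HTRA2, a protease of the intermembrane space, was at -0.42 (limma adjusted p = 0.0133) without cysteine and 0.21 (limma adjusted p = 0.0391) in excess, and 32.3% of its exon bases overlap LOXL3 and AUP1 on the other strand.

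Whether the genes of a related pair moved by different amounts was asked with the log2 ratio of the pair within each library, over 9 pairs. The GRPEL1/GRPEL2 ratio was 0.30 ± 0.143 (SD, n = 4) in complete medium and -1.18 ± 0.0346 (SD, n = 4) in excess, a difference of -1.49 or 2.80-fold (2-sided exact permutation p = 0.029, the smallest that 4 against 4 libraries allow, Benjamini-Hochberg adjusted 0.043 over the 9 pairs). This was the largest of the 9 differences. With the same exact permutation p of 0.029 and adjusted value of 0.043, the ratio changed by -1.31 for TOMM20/TOMM20L, -0.79 for TIMM10/TIMM10B, -0.77 for PMPCA/PMPCB, 0.47 for TIMM17A/TIMM17B and -0.41 for TIMM23/TIMM23B. The ratio of TOMM20 to TOMM20L rests on few reads of TOMM20L, which overlaps TIMM9, a gene that rose in excess. At an adjusted p of 0.01, the threshold used for single genes, no pair could pass, as 0.029 is the smallest possible p. The remaining 3 pairs had larger p-values. TIMM8A/TIMM8B differed by 0.10 (exact permutation p = 0.29), with library ratios of -0.60 to -0.30 in excess and -0.67 to -0.45 in complete medium. TOMM40/TOMM40L differed by -0.07 (exact permutation p = 0.31) and AFG3L2/SPG7 by -0.05 (exact permutation p = 0.71).

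Without cysteine, 2 against 4 libraries cannot give an exact permutation p under 0.067, so no pair could pass there either. The GRPEL1/GRPEL2 ratio was -0.55 ± 0.0315 (SD, n = 2) there, a difference of -0.86 from complete medium with no overlap of the libraries. TIMM17A/TIMM17B was 0.34 ± 0.0208 (SD, n = 2) without cysteine, 0.89 ± 0.103 (SD, n = 4) in complete medium and 1.36 ± 0.0671 (SD, n = 4) in excess. This ratio was thus on opposite sides of complete medium in the other two media, at differences of -0.56 and 0.47. Set against each other, cysteine-free and excess medium differed in it by -1.02 or 2.03-fold (exact permutation p = 0.067, again the smallest possible).

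Cysteine-free and excess medium were also compared directly. Of the 42 genes 20 were higher and 8 lower without cysteine than in excess, and 14 did not pass, against 48.0% of all entries called (23.6% higher, 24.4% lower) and 68.6% of the well-expressed coding genes (36.9% higher, 31.8% lower). All cysteine-free libraries lay above all excess libraries for 22 of the 42, against 33.1% of all entries, and below them for 10, against 32.9%. The median log2 difference was 0.11. At equal totals the 42 genes gave 17 higher and 11 lower, and the share of all calls that were higher went from 49.2% to 40.0%. TIMM17B (0.88, SE 0.059, limma adjusted p = 3.46e-12) and TOMM6 (0.86, SE 0.0525, limma adjusted p = 6.16e-13) stood furthest above excess, followed by TIMM13 (0.68) and TIMM10 (0.60), and HSPE1 and HSPD1 by 0.56 and 0.49. In the other direction HTRA2 was at -0.63 (SE 0.0506, limma adjusted p = 1.06e-10), where its neighbours AUP1 and LOXL3 were at -0.57 and -0.47, with GRPEL2 (-0.46), DNAJA3 (-0.41), YME1L1 (-0.39) and the readthrough TIMM23B-AGAP6 (-0.38, against -0.48 for AGAP6) also lower without cysteine. TIMM9 (0.08, limma adjusted p = 0.242) and TIMM44 (0.01, limma adjusted p = 0.848), which both lay above complete medium in both media, did not pass between them. GRPEL1 (0.17, limma adjusted p = 9.55e-03) lost its call without either cysteine-free library or excess replicate 1, 2 or 4 (adjusted p from 0.0144 to 0.0776), in 5 other settings (0.0101 to 0.033) and at equal totals, where the log2 difference was 0.09 (adjusted p = 0.138). TIMM17A (-0.14, limma adjusted p = 7.55e-03) lost its call without cysteine-free replicate 1 or excess replicate 1, 2 or 3 (adjusted p from 0.0115 to 0.127), with the replicate block (0.0103), without the low-value filter (0.0156) and in 1 fit over all groups (0.0238).

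Other genes of the pathway, 36 in a list written from general knowledge, were read in the same fits. Without cysteine 5 of the 36 rose and 4 fell (median log2 fold change -0.05), and in excess 8 rose and 18 fell (median -0.25). The share called was 25.0% without cysteine and 72.2% in excess, against 15.9% and 46.0% of all entries and 28.9% and 68.0% of the well-expressed coding genes, so it was near that of well-expressed genes in both media. Only 2 were called without replicate 1 of the cysteine-free libraries, 3 without its replicate 2 and 5 without replicate 1 or replicate 2 of the complete libraries. Of the 6 regulators of the mitochondrial stress response in the list, ATF4, ATF5, DDIT3 and CEBPB rose in both media, and DELE1 and HSF1 passed in neither. The share called was thus 66.7% in each medium, against the same 28.9% and 68.0% of well-expressed coding genes. CEBPB, a transcription factor of stress responses, was at 2486 and 2572 without cysteine, 1269, 1230.4, 1212 and 1339 in complete medium and 6398, 6308, 6630.4 and 7267 in excess. DDIT3, the factor CHOP, was at 1158 and 1231, 576 to 637 and 2611 to 2881 in the same order. Complete medium was lowest and excess highest for both, without overlap, at log2 fold changes of 1.00 (limma adjusted p = 5.67e-07) and 2.40 (limma adjusted p = 9.20e-16) for CEBPB and of 0.97 (limma adjusted p = 4.10e-06) and 2.19 (limma adjusted p = 7.33e-15) for DDIT3. ATF5, a factor of the mitochondrial unfolded protein response, was at 1638 and 1434, 612 to 1116 and 2339 to 2543. It changed by 0.91 (limma adjusted p = 1.21e-03) and 1.56 (limma adjusted p = 7.44e-09), and the first was lost without replicate 1 or 2 of the cysteine-free libraries (adjusted p = 0.0456 and 0.0219).

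Among the falls in that list, the prohibitin PHB1 was at 8567 and 8935 without cysteine, 10748 to 11758 in complete medium and 6418 to 7174 in excess. It fell by 0.36 (limma adjusted p = 2.14e-04) without cysteine on the log2 scale, a call lost without replicate 1 of those libraries (adjusted p = 0.0147). The disaggregase CLPB was at 3804 and 3520.3 without cysteine, 4312 to 4914 in complete medium and 3445 to 3885 in excess, and MTX1 at 2079 and 2107, 2381 to 2610.1 and 2265 to 2537. Cysteine-free medium lay below complete medium for both. CLPB (-0.30) and the outer membrane assembly factor MTX1 (-0.25) also passed there, and each lost the call without cysteine-free replicate 1 or 2 or complete replicate 1 or 2, and MTX1 also without complete replicate 4 (adjusted p from 0.0109 to 0.0999). MTX1 also missed the threshold in edgeR, with the replicate block, without the low-value filter and in the other scalings (adjusted p from 0.0107 to 0.0259). In excess the largest falls were those of the peptidase NLN, from 2507 to 2581 in complete medium to 779 to 943 (-1.58, limma adjusted p = 8.67e-13), and of OMA1, a stress-activated inner membrane protease, from 927 to 1102 to 409 to 516 (-1.10, limma adjusted p = 4.49e-09). MIPEP, the intermediate peptidase that acts after the processing peptidase, went from 649.8 to 799 in complete medium to 365 to 422 (-0.88, limma adjusted p = 7.93e-08). Without cysteine NLN, OMA1 and MIPEP did not pass, at -0.11, 0.19 and 0.01, and they were higher there than in excess by 1.47, 1.30 and 0.88 (limma adjusted p = 2.44e-15, 1.93e-12 and 2.17e-09).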

How the data were processed

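RNA of HEK293T cells was sequenced from 10 libraries in 3 media, grouped by their titles. The authors aligned reads to GRCh38 with STAR 2.7.10b, counted them per gene and divided the counts by DESeq2 size factors (DESeq2 1.42.0 in R 4.3.3 per the processing notes, with another R version in the study's methods). The study's methods name featureCounts as the counter and the submitters' processing notes name HTSeq. The deposited signal values are these normalized counts. The deposited values gave whole reads for 100.00% of values at a tolerance of 0.01, so count tests could be run as alternatives. From the deposited values, log2(value + 1) was tested with limma 3.58.1 (trend, libraries of the 2 groups compared only, entries with 10 or more in at least 3 libraries, 2-sided, Benjamini-Hochberg over all 29045 entries, threshold 0.01). A fold change on this scale understates the change of low genes. Alternatives were other pseudocounts, filters and scalings, 1 fit over all groups, a replicate block and leaving out each library. The block held only the replicate numbers found in both groups. Count tests of the whole reads in edgeR 4.0.16 and in DESeq2 were further alternatives. Scaling to equal totals over nuclear genes was added after seeing the data. The limma fit was also run on simulated counts, and the outcome is not given here. Replicate pairs of 1 group differed by more than counting noise (chi-square per degree of freedom from 3.54 to 14.8), so none was counted as 1 library. Replicates are labelled as biological, with no word on separate thaws or days, so p-values measure the spread between these cultures. Counts carry no molecular identifiers.

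The genes and lists were chosen with earlier results of these data known. Genes named by rule, with each library's value or each group's range, are the 5 largest called increases and decreases in each comparison with complete medium, both genes of each related pair, HSPD1 and HSPE1, and the 3 largest called changes each way among the 36 other genes of the pathway. The largest direct differences between cysteine-free and excess medium, and calls at other genes, were named after their values were seen. Promoters came from RefSeq, GRCh38.p14, and gene positions and exon overlaps from GENCODE 44, on the same build as the files.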

Additional observations from a re-analysis of the deposited data

Results flagged for a closer look

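Groups of 4 libraries were examined for a library far from the other 3 in 72 cases (Dixon's test of its gap to the nearest of the others over the whole range). Of these, 4 were found, and chance gives about 1 in 20. DDIT3 in excess medium was lowest in replicate 1 at 2611 normalized counts, against 2840.1 to 2881 in the other libraries. TIMM10 in complete medium was lowest in replicate 3 at 1179, against 1259.7 to 1276. TIMM23B in excess medium was highest in replicate 3 at 1127, against 967 to 982. TOMM20L in excess medium was highest in replicate 2 at 77.1, against 50.1 to 54.4.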

How the results depend on the processing

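The total of called genes in each comparison stayed within 1.5 times its value under every alternative other than leaving out a single library. By direction, the 42 genes went from 6 to 10 higher in excess at equal totals. The 36 other genes went from 4 to 2 lower without cysteine with quantile normalization. The replicate block used only replicate numbers found in both groups. In comparisons with the cysteine-free libraries it thus held only replicates 1 and 2 of each group. The replicate numbers did not pair the samples: same-number deviations correlated at -0.0281 to 0.0392, and not every library correlated best with its own number. Among the 42 genes, 19 to 27 were called without cysteine (24 with the replicate block), 30 to 33 in excess (32 with the block) and 25 to 29 between cysteine-free and excess medium (25 with the block). For the 36 other genes the ranges were 7 to 11 (8 with the block), 25 to 28 (25) and 21 to 24 (21). Leaving out 1 library gave 7 to 23, 30 to 32 and 24 to 27 for the 42 genes and 2 to 9, 23 to 27 and 18 to 23 for the others.

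Of the log2 fold changes, 1542 alternatives kept direction and side, 56 lost the call, 23 gained it and 26 changed sign, all of the last in values near 0 that had not passed. Without cysteine TIMM23B-AGAP6 (main value -0.0078) was 0.0162 at equal totals, 0.0273 at equal totals over nuclear genes, 0.0293 with quantile normalization, 0.0081 with the replicate block, 0.0049 in edgeR, and -0.0830 to 0.0675 without 1 library. TOMM20 (-0.0084) was 0.0156, 0.0266 and 0.0050 in the first 3 of these, 0.0032 in edgeR and -0.0568 to 0.0399 without 1 library. In excess PMPCB (-0.0091) was 0.0962, 0.0285 and 0.0390 in the 3 scalings and -0.0501 to 0.0088 without 1 library, TIMM10B was 0.0220 at equal totals, and TIMM23B was -0.0319 to 0.0506 without 1 library. Between cysteine-free and excess medium TIMM10B was -0.0614 at equal totals and -0.0106 with quantile normalization, TIMM23 was -0.0148 and TIMM44 -0.0701 at equal totals, and TIMM44 was -0.0133 to 0.0337 without 1 library. The cause of these changes was not tested.

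With 2 cysteine-free libraries, that group's spread rests largely on what limma borrows from other genes, and with 1 left the lone library is assumed to vary like the complete ones. Depth limits only TOMM20L, with 17 to 78 reads a library.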
